A study of Homo sapiens with 6 samples.

Results

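The ribosome assembly factors described here are 60 genes whose protein products build the ribosomal subunits in the nucleolus without being part of the finished ribosome. A gene was measured where the array's annotation gives a transcript cluster that symbol and no other, and the brightest such cluster stood for a gene with several. This held for 56 of the 60, out of 18417 named genes and 33297 transcript clusters in all. GNL3 and EBNA1BP2 had no such entry, and the clusters that carry PPAN and NOP56 also carry other symbols. The study exposed the human line MDA-MB-231, an established model of triple-negative breast cancer, to 1 µM selamectin, a macrocyclic lactone antiparasitic of the avermectin family, for 24 h. The control cultures of the same line are called untreated in the titles, while the protocol speaks of vehicle, and what they received is not settled. There were 3 whole-transcript arrays per group, and the series is titled as a study of avermectins as inhibitors of the SIN3 corepressor. All cultures were 1 cell line, described as independent replicates, and bulk RNA cannot tell a change in every cell from a change in part of the culture.

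Ribosome assembly starts on the long precursor of ribosomal RNA. The small-subunit processome, which contains the U3 snoRNP, folds the end of the precursor that becomes the small subunit, and later factors carry the 40S particle into the cytoplasm and finish its RNA. A separate and longer chain of GTPases, helicases and scaffold proteins builds the 60S particle. Small nucleolar ribonucleoproteins (snoRNPs) of the box C/D and box H/ACA classes place ribose methyl groups and pseudouridines on the precursor. Fast-growing cancer cells carry enlarged nucleoli, and many of these genes are known targets of the transcription factor MYC.

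Selamectin-treated cells had higher transcript levels of a subset of the assembly factors, with changes below 2-fold. Of the 56 measured, 12 rose past an adjusted p of 0.05 in limma's test over all 18417 genes and 0 fell, which is 21.4% of the members. Over all named genes 2.41% were called higher and 2.28% lower. A fit of only the genes above the median of mean level kept all 56 members. It called 14 members higher (25%), against 5.76% of those genes. The members were listed with earlier results of these data known, so their share is a description and not independent evidence. The 12 were UTP4 and UTP14A of the small-subunit processome, PNO1, RIOK2 and NOB1 of 40S maturation, NIP7, GNL3L, WDR74, PES1, NOP2 and RPF2 of 60S assembly, and the nucleolar protein SURF2. At an unadjusted p under 0.05, 29 members were higher and 0 lower, where 11.7% of all genes were higher and 8.21% lower. The log2 change was positive for 52 members and negative for 4, TBL3, NOP9, GAR1 and WDR12, and it was positive for 63% of all genes. All 3 selamectin arrays lay above all 3 untreated arrays for 28 members, or 50%, against 16% of all genes, and below them for 0 members, against 9.3% of all genes. The members' median log2 change was 0.25, and that of all genes 0.04. The count was sensitive to leaving out single arrays. Such a fit also has fewer arrays from which to estimate the spread. Leaving out selamectin array 1, 2 or 3 gave 9, 3 and 10 members, and leaving out untreated array 1, 2 or 3 gave 2, 8 and 6. Only UTP4 and SURF2 were still past the threshold without untreated array 1, and they were joined by RIOK2 without selamectin array 2. Without untreated array 3 the 6 were UTP4, SURF2, RIOK2, PNO1, NIP7 and GNL3L, and without untreated array 2 PES1 and WDR74 passed as well. The share of all genes called higher moved too, to 1.41%, 0.521% and 3.72% for the selamectin arrays in that order and to 0.413%, 1.63% and 0.76% for the untreated ones. With all transcript clusters in the fit, 6 members rose, beside 0.312% of the clusters.

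**Figure D1:**
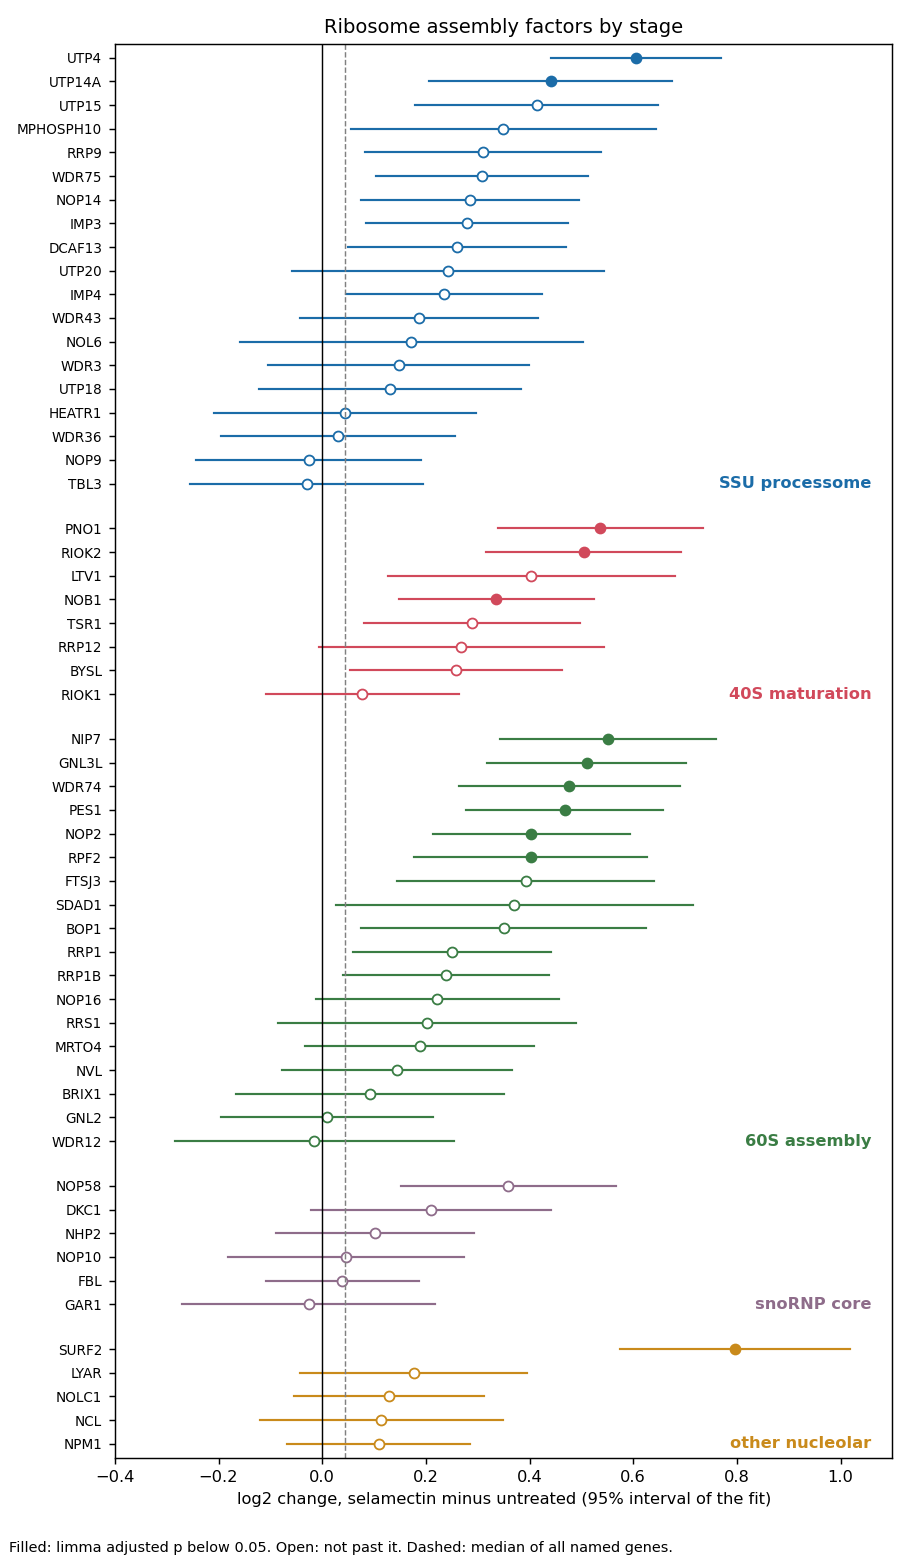
Log2 change, selamectin minus untreated, of the 56 measured members (points) with the 95% interval of the fit (lines), grouped by stage from the top as small-subunit (SSU) processome, 40S maturation, 60S assembly, snoRNP core and other nucleolar proteins. Filled points mark the 12 members with a limma adjusted p below 0.05; all of them lie to the right of the dashed line, the median of all named genes at 0.04, and SURF2 lies farthest right at 0.80.

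Among the members, factors of 40S maturation and 60S assembly had higher median changes than the snoRNP core proteins. The difference between stages was not tested, and a second list of factors, given below, had a different order. The median log2 change was 0.31 for 8 factors of 40S maturation, 0.30 for 18 of 60S assembly and 0.24 for 19 of the small-subunit processome. It was 0.07 for 6 snoRNP core proteins and 0.13 for 5 other nucleolar proteins. The calls were 3 of 8 (37.5%) in 40S maturation, 6 of 18 (33.3%) in 60S assembly, 2 of 19 (10.5%) in the processome, 0 of 6 in the snoRNP core and 1 of 5 (20%) among the other nucleolar proteins, beside 2.41% of all genes. With an array left out, the medians ranged from 0.29 to 0.34 in 40S maturation, 0.22 to 0.33 in 60S assembly, 0.19 to 0.31 in the processome, 0.05 to 0.12 in the snoRNP core and 0.07 to 0.21 among the other nucleolar proteins.

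**Figure D2:**
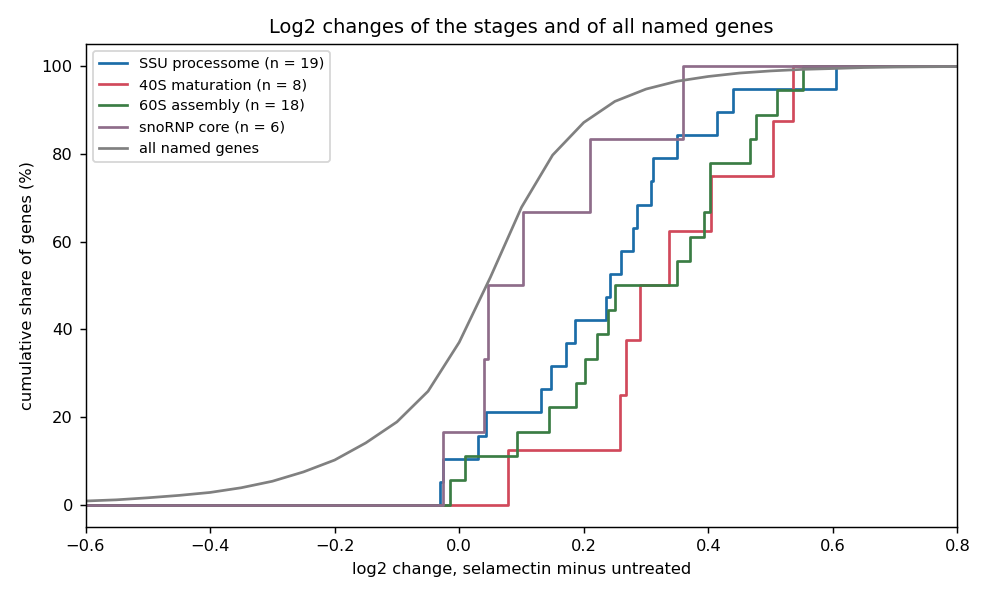
Cumulative share of genes (vertical axis, %) at or below each log2 change, selamectin minus untreated (horizontal axis), for the 4 main stages and for all named genes. The curves of 40S maturation, 60S assembly and the processome lie to the right of all genes, with medians of 0.31, 0.30 and 0.24, and that of the snoRNP core, with a median of 0.07, lies closest to it.

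The small-subunit processome contained the member with the smallest p, UTP4. UTP4, also called cirhin, belongs to the UTP-A complex, the first to bind the precursor. It read 12.78, 12.97 and 12.85 (log2 expression) on selamectin arrays 1 to 3, against 12.20, 12.30 and 12.28 on untreated arrays 1 to 3. Every selamectin value was above every untreated one, and the difference was larger than the spread within either group. The mean was 12.87 ± 0.10 with selamectin and 12.26 ± 0.05 untreated (SD, n = 3 each), a rise of 1.52-fold (log2 change 0.61 ± 0.07 SE, limma adjusted p = 0.0040). The other 4 UTP-A subunits among the members did not pass the test. UTP15 read 9.93, 10.04 and 10.27 with selamectin and 9.78, 9.61 and 9.62 untreated. Its groups did not overlap either, selamectin array 3 was its highest, and its log2 change of 0.41 had a limma adjusted p of 0.051. WDR75 stood at a log2 change of 0.31 (limma adjusted p = 0.087), again without overlap, and WDR43 at 0.19 and HEATR1 at 0.04 with overlapping groups. UTP4 passed in each of the 16 alternative settings of the fit, with an adjusted p up to 0.042, and UTP15 passed in 6 of them.

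UTP14A, which in yeast activates the helicase that releases U3 snoRNA, was the other processome member past the threshold. It read 10.40, 10.17 and 10.45 on the selamectin arrays and 9.95, 9.75 and 10.00 on the untreated arrays. Array 2 was the lowest of both groups, and the groups did not overlap. The rise was 1.36-fold (limma adjusted p = 0.041), and it lost its call whichever array was left out, with an adjusted p up to 0.12. A near-identical retrogene, UTP14C, may share its probes.

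Among the members, other modules of the processome had smaller log2 changes than UTP4 and UTP14A, and none of their genes passed. The 3 proteins of the MPP10 complex, MPHOSPH10, IMP3 and IMP4, which joins U3 snoRNA to the precursor, had log2 changes of 0.35, 0.28 and 0.24. All 3 had selamectin values above all untreated values, and none passed in limma (adjusted p from 0.104 to 0.175; 3 of 3 at an unadjusted p under 0.05). The 4 UTP-B subunits among the members, WD-repeat proteins that bind next to UTP-A, had log2 changes from -0.03 for TBL3 to 0.15 for WDR3. The groups overlapped for all 4, and none passed in limma at either p. RRP9, the protein specific to the U3 snoRNP, stood at 0.31, NOP14 at 0.28 and DCAF13 at 0.26, each without overlap and without passing. NOL6 was spread widely on the selamectin arrays, at 9.54, 9.76 and 10.22, against 9.62, 9.62 and 9.77 untreated. UTP20 and NOP9 stood at 0.24 and -0.03 with overlap.

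The upstream sequence is shown for 3 of the 4 called genes whose window held a motif. The E-box was chosen because MXD-MAX dimers, which bind the same site as MYC-MAX, bring the SIN3 corepressor of the series title there. The window of NIP7 held an ETS core and no E-box. The 250 bases upstream of the start were taken from RefSeq's promoter table (GRCh38.p14), which held 46 of the 56 measured members and 10 of the 12 called ones. They were searched on both strands for the E-box CACGTG, which reads the same on either strand, and for the core CCGGAAG of ETS-family factors (CTTCCGG on the other strand). The motifs do not overlap each other in the windows below, which are chr16:69132399-69132648 (strand +) for UTP4, chrX:129905914-129906163 (strand +) for UTP14A and chr16:69339522-69339771 (strand +) for NIP7, with the motifs in capitals and the last base next to the start.
UTP4: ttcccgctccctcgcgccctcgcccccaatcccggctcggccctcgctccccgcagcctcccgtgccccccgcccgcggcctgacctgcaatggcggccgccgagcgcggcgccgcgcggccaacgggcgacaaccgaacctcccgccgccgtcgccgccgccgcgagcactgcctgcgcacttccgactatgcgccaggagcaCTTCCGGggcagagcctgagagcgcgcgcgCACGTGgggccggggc
UTP14A: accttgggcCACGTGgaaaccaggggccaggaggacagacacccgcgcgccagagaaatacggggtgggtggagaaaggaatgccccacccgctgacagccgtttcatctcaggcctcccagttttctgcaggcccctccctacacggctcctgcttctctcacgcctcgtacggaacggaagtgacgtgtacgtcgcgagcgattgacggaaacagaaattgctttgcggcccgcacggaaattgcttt
NIP7: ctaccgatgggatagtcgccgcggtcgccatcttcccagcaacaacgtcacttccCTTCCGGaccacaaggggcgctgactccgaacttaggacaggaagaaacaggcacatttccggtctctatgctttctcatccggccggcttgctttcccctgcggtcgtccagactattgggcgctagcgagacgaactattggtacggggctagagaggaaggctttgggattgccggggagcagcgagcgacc

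In UTP4 the E-box began 16 bases and the ETS core 46 bases upstream of the start. In UTP14A the E-box began 241 bases upstream, and in NIP7 the ETS core 195 bases upstream. WDR74 had an ETS core 15 bases upstream, and the other 6 called members with a window had neither motif. An E-box was found for 7 of 46 members (15.2%), against 7.86% of 14239 named genes with a window and 6.49% of all 27305 windows. Of those 7, 5 belonged to the processome, namely UTP4, UTP14A, UTP18, UTP20 and IMP4, out of 17 processome windows. The E-box was found in 1 of 14 windows of 60S assembly and 1 of 5 of the snoRNP core. It was found in 0 of 7 windows of 40S maturation and 0 of 3 of the other nucleolar proteins. Only 2 of the 10 called members with a window had it, and it was also present in genes near 0, such as NOP10 (0.05) and UTP18 (0.13). The ETS core was found for 15 of 46 members (32.6%), against 12.1% of the named genes and 8.82% of all windows. It was present in genes that rose and in genes near 0, such as FBL, GAR1 and RIOK1.

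Factors of 40S maturation act after the processome has come apart. PNO1, an RNA-binding protein that holds the end of the 18S precursor, read 10.54, 10.71 and 10.54 with selamectin, against 10.00, 10.06 and 10.12 untreated. The groups were well apart, and the rise was 1.45-fold (log2 change 0.54 ± 0.09 SE, limma adjusted p = 0.0099). RIOK2, an atypical kinase that enters the same particle, read 10.52, 10.45 and 10.47 with selamectin and 9.93, 9.94 and 10.05 untreated. Its selamectin arrays lay close together and clear of the untreated ones, and its rise was 1.42-fold (limma adjusted p = 0.010). NOB1, the endonuclease that makes the final cut of 18S RNA once PNO1 has left, read 11.48, 11.62 and 11.56 with selamectin and 11.10, 11.29 and 11.26 untreated. It rose 1.26-fold at the edge of the threshold (limma adjusted p = 0.049), and it lost the call whichever array was left out, with an adjusted p up to 0.195.

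The remaining 40S members had positive changes without passing. LTV1, a component of the late 40S precursor, stood at a log2 change of 0.40 (limma adjusted p = 0.098). It read 9.83, 9.46 and 9.49 with selamectin and 9.34, 8.99 and 9.24 untreated, with array 1 the highest of both groups. TSR1, a GTPase-like protein, and BYSL stood at 0.29 and 0.26 without overlap. RRP12, an export factor, stood at 0.27 with overlap, and its highest value, 10.04, was on selamectin array 3. RIOK1, the relative of RIOK2 that acts at the final step, stood at 0.08, with an interval from -0.11 to 0.26. RIOK2 and RIOK1 thus had different values, but the difference between them was not tested.

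**Figure D3:**
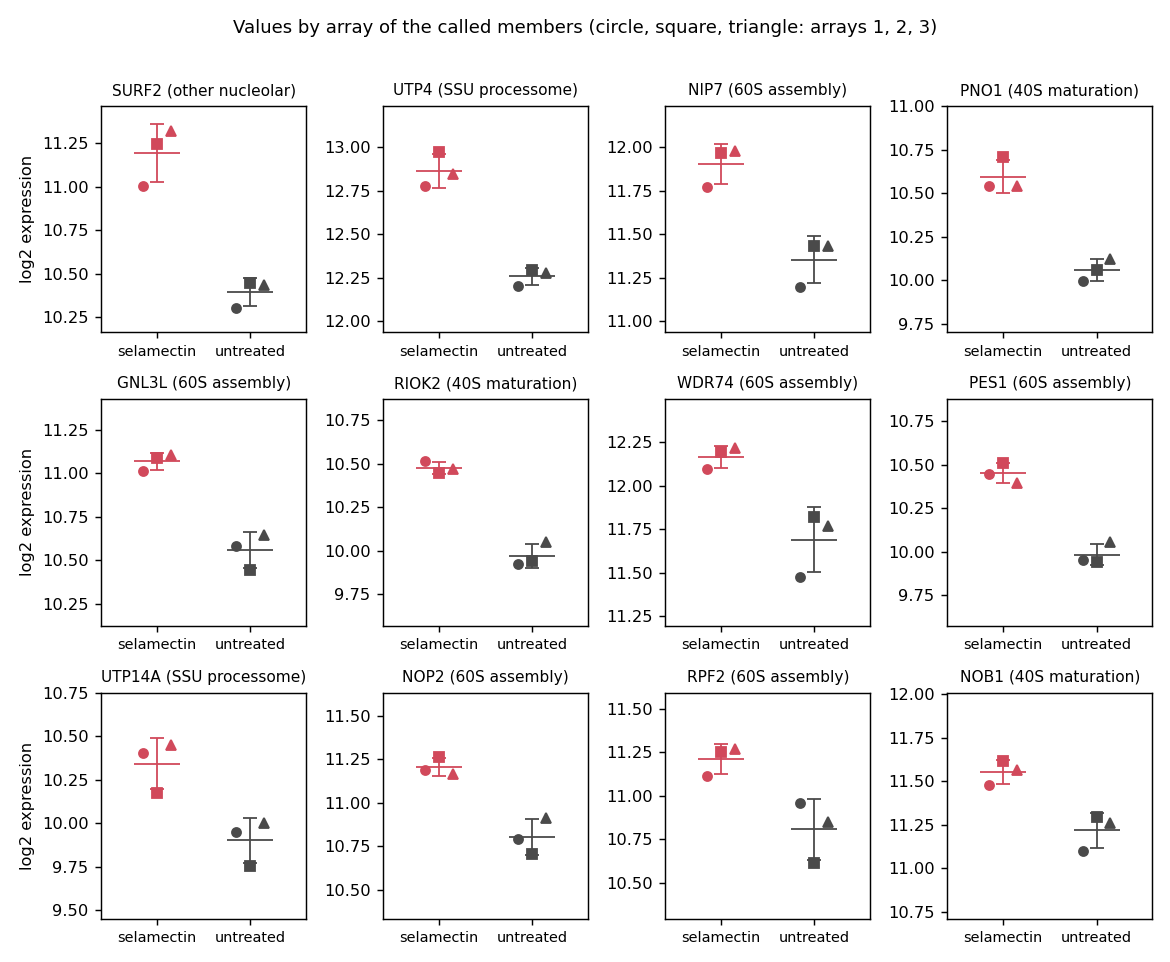
Log2 expression by array for the 12 members that rose, selamectin left of untreated in each panel, with the mean (long bar) and SD (whiskers) of 3 arrays. All panels span the same height, and the groups do not overlap in any panel; the difference in means is largest for SURF2 (0.80) and smallest for NOB1 (0.34).

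Assembly of the 60S subunit held 6 of the 12 called genes. NIP7, an RNA-binding protein that in yeast acts early in 60S assembly, read 11.77, 11.97 and 11.98 with selamectin and 11.20, 11.43 and 11.43 untreated. Array 1 was the lowest of both groups, there was no overlap, and the rise was 1.47-fold (log2 change 0.55 ± 0.09 SE, limma adjusted p = 0.011). GNL3L, a nucleolar GTPase, read 11.01, 11.09 and 11.10 with selamectin and 10.58, 10.44 and 10.64 untreated. It rose 1.42-fold (limma adjusted p = 0.011). A second GTPase, GNL2, overlapped between the groups, at 11.25, 11.33 and 11.22 with selamectin and 11.41, 11.11 and 11.24 untreated (log2 change 0.01, interval -0.20 to 0.21).

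PES1, BOP1 and WDR12 form the PeBoW complex, which is needed to process the RNA of the large subunit. PES1 read 10.45, 10.51 and 10.40 with selamectin and 9.95, 9.94 and 10.05 untreated, and it rose 1.38-fold (limma adjusted p = 0.014). BOP1 read 10.43, 10.64 and 10.96 with selamectin and 10.26, 10.37 and 10.36 untreated. Its groups did not overlap, yet its selamectin arrays were spread over more than its difference of 0.35, and it did not pass (limma adjusted p = 0.14). WDR12 read 11.06, 10.99 and 10.74 with selamectin and 11.15, 10.72 and 10.96 untreated, with overlap and an interval from -0.28 to 0.25. The 3 partners of the complex therefore had 3 different values, with no test of the differences.

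WDR74 read 12.10, 12.19 and 12.22 with selamectin and 11.48, 11.82 and 11.77 untreated. It binds the early particle until the ATPase NVL removes it, and it rose 1.39-fold (limma adjusted p = 0.021), with untreated array 1 well below the other untreated arrays. NVL stood at 0.14 with overlap. NOP2, a cytosine methyltransferase of the large ribosomal RNA, read 11.19, 11.26 and 11.17 with selamectin and 10.79, 10.71 and 10.91 untreated. It rose 1.32-fold (limma adjusted p = 0.027). RPF2, which with RRS1 brings the 5S RNA particle into the 60S precursor, read 11.11, 11.25 and 11.27 with selamectin and 10.96, 10.62 and 10.85 untreated. The call of RPF2 (1.32-fold, limma adjusted p = 0.049) was lost in 12 of 16 alternatives. Its second, dimmer cluster had a log2 change of 0.23 with overlap. With its clusters averaged, the log2 change was 0.32 (limma adjusted p = 0.19). Which cluster lies at the RPF2 locus was not checked. RPF2 is counted among the 12 calls, and among the 6 in 60S assembly, through its brighter cluster. RRS1 stood at 0.20 with overlap.

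The other 60S members did not pass. FTSJ3, an RNA methyltransferase, stood at 0.39 (limma adjusted p = 0.074), RRP1 at 0.25 and RRP1B at 0.24, each with all selamectin values above all untreated values. SDAD1 stood at 0.37, and its untreated values of 9.63, 9.12 and 9.82 spanned more than that, against 9.88, 9.77 and 10.02 with selamectin. NOP16, MRTO4 and BRIX1 stood at 0.22, 0.19 and 0.09 with overlap. BOP1 had a second cluster at 0.41, in the same direction and without overlap, and SDAD1 a dim one at 0.17.

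The core proteins of the modification snoRNPs showed the smallest shift. Of the box C/D proteins, NOP58, a scaffold of the particle, read 11.63, 11.71 and 11.89 with selamectin and 11.43, 11.26 and 11.46 untreated. It did not overlap, and its log2 change of 0.36 missed the threshold (limma adjusted p = 0.055), which it passed in 4 of 16 alternatives. Fibrillarin (FBL), the ribose methyltransferase, read 12.59, 12.64 and 12.54 with selamectin and 12.53, 12.57 and 12.56 untreated. Its values were tight and overlapping, with an interval of the log2 change from -0.11 to 0.19. The 4 box H/ACA proteins overlapped between the groups. DKC1, the pseudouridine synthase, stood at a log2 change of 0.21, NHP2 at 0.10, NOP10 at 0.05 and GAR1 at -0.03. A second, slightly dimmer NHP2 cluster stood at 0.08 with overlap, and which cluster lies at the NHP2 locus was not checked. GAR1 read 9.12, 9.06 and 9.09 with selamectin and 9.35, 9.04 and 8.96 untreated, and only untreated array 1 lay above the selamectin arrays. None of the 6 passed in limma, and 1, NOP58, had an unadjusted p under 0.05.

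SURF2 had the largest change of all members. It is a nucleolar protein of the surfeit locus. It read 11.00, 11.25 and 11.32 with selamectin and 10.30, 10.45 and 10.43 untreated. Array 1 was the lowest of both groups, and the lowest selamectin value was still well above the highest untreated one. The mean was 11.19 ± 0.17 with selamectin and 10.39 ± 0.08 untreated (SD, n = 3 each), a 1.74-fold rise (log2 change 0.80 ± 0.10 SE, limma adjusted p = 0.0043) that held in all 16 alternatives. The abundant nucleolar proteins had overlapping groups and small positive values. Nucleophosmin (NPM1), a histone and ribosome chaperone, stood at 0.11, nucleolin (NCL) at 0.11, NOLC1, which chaperones snoRNPs, at 0.13 and LYAR at 0.18. NPM1 read 13.51, 13.46 and 13.63 with selamectin and 13.53, 13.27 and 13.47 untreated, and the other 3 NPM1 clusters had log2 changes from 0.05 to 0.12. NPM1 has processed pseudogenes that may share its probes.

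The position of a gene was no part of its choice, and 3 of the called members lie close together on chromosome 16. In RefSeq's gene order, 4 protein-coding genes separate UTP4 from NIP7, and 5 separate NIP7 from NOB1. This grouping was noticed after the values were seen. Of the 9 genes between them, 7 were measured and none passed in limma, with log2 changes from -0.26 for NFAT5 to 0.26 for TERF2 (VPS4A higher and NFAT5 lower at an unadjusted p under 0.05). SURF1, the divergent neighbour of SURF2, read 9.85, 9.84 and 9.85 with selamectin and 9.60, 9.76 and 9.72 untreated, a log2 change of 0.15 that did not pass. Of the other measured neighbours, RPL7A stood at -0.17 and SURF4 at -0.04, both with all selamectin values below all untreated values, and STKLD1 at 0.15 with overlap. None of these passed in limma, and RPL7A was lower at an unadjusted p under 0.05. Whether the RPL7A cluster reads the gene at this locus was not checked.

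By array, the mean of the members relative to the untreated mean of each gene was 0.212, 0.225 and 0.333 on selamectin arrays 1, 2 and 3, against 0.04, -0.08 and 0.04 on untreated arrays 1, 2 and 3. Over all named genes the same means were 0.04, 0.05 and -0.01 with selamectin, and -0.02, 0.00 and 0.01 untreated. Selamectin array 3 held the highest selamectin value for 38 of 56 members, and untreated array 2 the lowest untreated value for 35. The excess on selamectin array 3 was clearest in the processome, at 0.37 against 0.16 and 0.16 on the other selamectin arrays. In 40S maturation the 3 selamectin arrays were close, at 0.33, 0.31 and 0.37, with the untreated arrays between -0.058 and 0.045. In 60S assembly they were at 0.26, 0.29 and 0.33, with the untreated arrays between -0.11 and 0.07. For the snoRNP core the groups overlapped, at 0.08, 0.15 and 0.14 with selamectin and up to 0.09 untreated. Without selamectin array 3 the median log2 change of the processome was 0.19 in place of 0.24. What set that array apart was not tested.

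**Figure D4:**
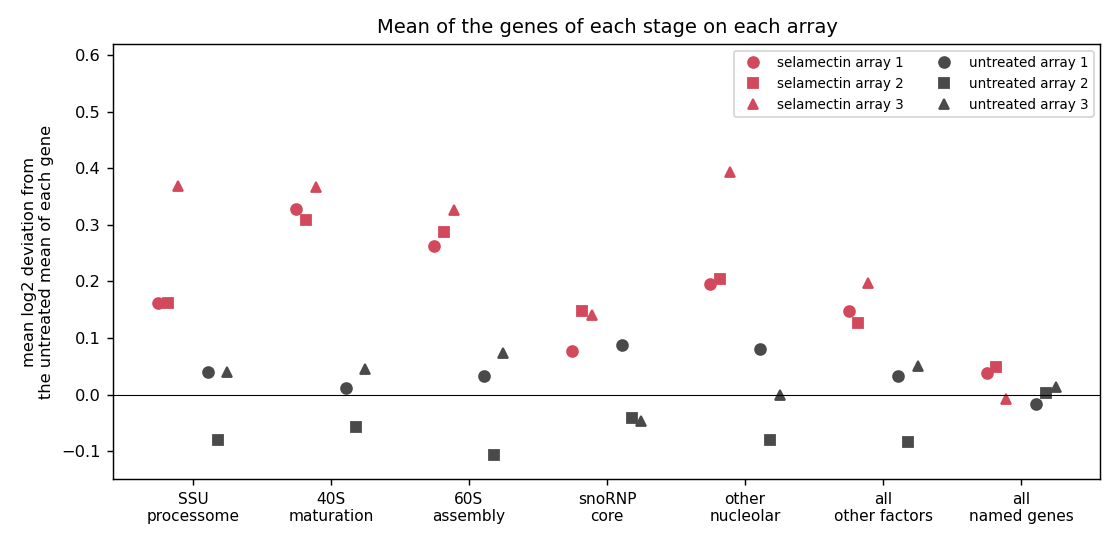
Mean over the genes of each stage of the log2 deviation from each gene's untreated mean (vertical axis), by array, with selamectin left of untreated in each column and circle, square and triangle for arrays 1, 2 and 3. Selamectin array 3 reaches 0.37 in the processome, where arrays 1 and 2 are at 0.16, and the 3 selamectin arrays lie between 0.31 and 0.37 in 40S maturation.

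Other factors of the same pathway, 84 genes listed from textbook roles, were read from the same fit. Of 80 measured, 7 rose and 0 fell (8.75%, against 2.41% of all genes called higher). In the fit of only the genes above the median of mean level, 10 of these factors were called higher. The share of all genes in that fit was 5.76%. At an unadjusted p under 0.05 in the main fit, 30 of the 80 were higher and 2 lower, where 11.7% of all genes were higher and 8.21% lower. The median log2 change of the 80 was 0.16. By stage it was 0.29 for 7 factors of 40S maturation and 0.19 for 26 of the processome. It was 0.14 for 39 of 60S assembly and 0.10 for 8 of snoRNP assembly. Calls were 3 of 26 (11.5%) in the processome and 4 of 39 (10.3%) in 60S assembly. In this list 60S assembly thus did not stand above the processome. In 60S assembly NOL9, the kinase that acts on the cut end of the precursor, rose 1.57-fold (limma adjusted p = 0.0094), with 10.30, 10.34 and 10.30 on the selamectin arrays and 9.81, 9.45 and 9.73 on the untreated arrays. EIF6, which keeps the subunits apart until the 60S particle is mature, rose 1.37-fold and SBDS, which helps to remove EIF6, 1.28-fold (limma adjusted p = 0.011 and 0.035). GRWD1, a histone and ribosomal protein chaperone, rose 1.44-fold (0.029). In the processome the helicase DDX49 rose 1.56-fold, UTP25 1.30-fold and AATF 1.27-fold (limma adjusted p = 0.019, 0.040 and 0.039). None of 7 other 40S factors or 8 snoRNP assembly factors passed in limma, with 4 and 2 at an unadjusted p under 0.05, all higher. URB1 and MDN1, the 2 that were lower at that level, stood at -0.30 and -0.28. Leaving out selamectin array 1, 2 or 3 gave 3, 1 and 8 rises, and leaving out untreated array 1, 2 or 3 gave 1, 4 and 3.

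The labelled cell line was set against markers of its kind. The mesenchymal genes VIM, CD44, CAV1, AXL and MSN read between 9.49 and 12.94 over the 6 arrays, the hormone receptor and epithelial genes ESR1, PGR and CDH1 between 5.58 and 7.16, and PTPRC, CD3E, PECAM1, VWF and ALB, markers of leukocytes, endothelium and liver, between 4.77 and 6.07. ERBB2 and CLDN3 read between 8.89 and 9.28. Values of different clusters have no common scale and no detection call was used, so presence or absence cannot be read from them.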

How the data were processed

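Total RNA of 6 cultures was measured on Affymetrix whole-transcript arrays. The authors deposited log2 expression values, 1 per transcript cluster and array. Tool names appear in the submitters' processing notes without version or setting (RMA, Affymetrix Expression Console, Transcriptome Analysis Console), and the log base was inferred from the range of 3.73 to 14.92. RMA as commonly run quantile-normalizes arrays and compresses changes of dim genes. The genome build, scan dates and detection calls are not given in the sources used here, so no batch could be tested. Arrays have no read depth, and their number limits precision.

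Clusters were named from the platform annotation, with symbols checked by Entrez number against RefSeq (GRCh38.p14, 19429 of 19460 found). The genomic position of a cluster was not checked. All 18417 genes were fitted with limma 3.58.1 in R 4.3.3 (lmFit, eBayes with an intensity trend), selamectin minus untreated, two-sided, with Benjamini-Hochberg adjustment and calls below 0.05. Dim genes were kept. Fold changes are linear values of log2 differences, and intervals are unadjusted 95% intervals of the fit.

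Members, stages and lists were chosen with earlier results of these data known, and no set test was run. Named genes are the members past the threshold, the 3 with the smallest p and the highest and lowest change of each stage, the subunits of named complexes, and the called factors among the other 84. Other members are given by value or range. Same-numbered arrays did not deviate together (correlations of -0.01, 0.24 and -0.14 over genes), so numbers were not taken as pairs. The fit code was run on simulated data with independent noise drawn from the fit's own variances. That run cannot show how array-wide deviations affect the calls. The motifs were chosen after the values were seen.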

Additional observations from a re-analysis of the deposited data

How the results depend on the processing

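The 16 alternatives kept 0 members called lower in every setting, and the direction of all 12 called members. The number of members called higher stayed between 9 and 14 in the settings that kept all 6 arrays, except 21 with array weights, which gave untreated array 3 a weight of 5.11 against 0.45 to 1.22 for the others, and 6 with all transcript clusters in the fit. With an array left out it ranged from 2 to 10. Of the 12 calls, 2 (UTP4 and SURF2) held in every setting and 6 in every setting with all 6 arrays. RPF2 lost its call in 12, NOB1 in 9, UTP14A and NOP2 in 7 each. The other assembly factors called higher numbered 20 with array weights, 4 with the replicate block, 2 with all clusters and 1 to 8 with an array left out, and those called lower 2 with array weights. All genes called higher and lower numbered 1822 and 1464 with array weights, and from 76 to 685 and from 100 to 464 with an array left out. In the fit of all clusters, 104 and 145 transcript clusters, named or not, were called higher and lower. The replicate block gave 9 members higher, all among the 12, and lost NOB1, NOP2 and RPF2. The median log2 change of 60S assembly ranged from 0.22 (without untreated array 2) to 0.33 with an array left out, and the other stage medians moved by less than the SD of their array means pooled over both groups. TBL3, WDR12 and GAR1, with changes near 0, turned sign, ranging from -0.112 to 0.0303, from -0.126 to 0.0885 and from -0.102 to 0.0904 with an array left out, and WDR12 and GAR1 stood at 0.0122 and 0.0813 with array weights. The causes were not tested.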
